A study of Homo sapiens with 4 samples.

Results

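On 1 of the 4 arrays of the series, RNA of FaDu cells that had received miR-504 was compared with RNA of FaDu cells given a control miRNA. FaDu is an established human hypopharyngeal squamous carcinoma line. The control RNA carried the dye Cy3 and the RNA of the miR-504 transfectant the dye Cy5, and both were extracted 72 h after transient transfection. The other arrays paired a control with FaDu cells given miR-489, HSC3 cells given miR-489 and HSC3 cells given miR-504, HSC3 being a tongue squamous carcinoma line. The comparison was chosen by its sample label, and it was described over all genes of the array. Each array was 1 hybridisation with no dye swap and no repeat, so no difference between miR-504 and control cells could be tested, and a dye effect of a probe could not be told apart from a change in RNA. The spread given with the values is that between spots of 1 probe, 0.0887 on the log2 scale (root mean square over 195 probes with at least 5 spots), which covers error within the array only.

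A miRNA is loaded into an Argonaute protein and pairs, mainly through the seed at its 5′ end, with sites in target mRNAs, which are then degraded or translated less. An array after transfection therefore reads the mRNA of direct targets together with everything that changes downstream. The gene of miR-504 lies on the X chromosome, and 2 mature strands are listed for it. The sample label does not say which strand was transfected. Both are shown with their seeds (bases 2 to 8) in capitals, beside the listed strand of miR-489, since arrays of both miRNAs are set side by side; sequences and positions are those of RefSeq (GRCh38.p14). The 3 seeds are different.
hsa-miR-504-5p (chrX:138667760-138667781, minus strand): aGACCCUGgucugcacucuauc
hsa-miR-504-3p (chrX:138667724-138667744, minus strand): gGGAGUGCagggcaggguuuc
hsa-miR-489-3p (chr7:93483947-93483968, minus strand): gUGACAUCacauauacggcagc

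Most genes differed little between miR-504 and control cells. Values are log2 ratios of Cy5 over Cy3 signal, each the median spot intensity minus the median local background, with the array median of 0.65 set to 0. Among the 17358 genes measured in both channels, 73.4% lay within 1.5-fold of that median and the quartiles were −0.37 and 0.33. A ratio at least 2-fold below control was counted for 1050 of the 17560 genes whose control signal stood well above background (5.98%). A ratio at least 2-fold above control was counted for 439 of the 18760 genes whose miR-504 signal did (2.34%). For a given gene, fewer cells expressing it and less of its RNA per cell could not be told apart in these bulk samples. At 4-fold, 112 genes were lower (0.638%) and 8 higher (0.0426%). The corresponding shares at 1.5-fold were 15.9% lower and 11% higher.

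The balance of lower and higher genes went with signal and with processing. With the spots measured in both channels cut into quartiles by signal, the median ratio was −0.28 in the dimmest and 0.11 in the brightest. The lower genes measured in both channels had a median control signal of 143, against 432 for the higher genes. In 194 of the lower genes Cy5 was too close to background, so that only a bound was known. Lower genes made up 70.5% of those past 2-fold, but 48.2% with the normexp background correction, 43.7% without background subtraction, 55.4% with the ratios of the scanner software and 88.3% with normalisation to total signal, which moved the median of all measured genes to −0.18. The share of lower genes was 64.5% with loess normalisation and 72.1% with normexp and loess together. Among 10404 genes with a signal of at least 200 in both channels, 334 were lower and 290 higher. This near balance depended on the setting. Lower and higher bright genes numbered 480 and 185 with the ratios of the scanner software, and 456 and 171 with loess. Higher ones were more frequent with normexp (244 lower and 316 higher) and without background subtraction (205 and 421). The plot of ratio against signal shows the dense band of dim genes below 0 and the bright genes that stand clear of it.

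**Figure D1:**
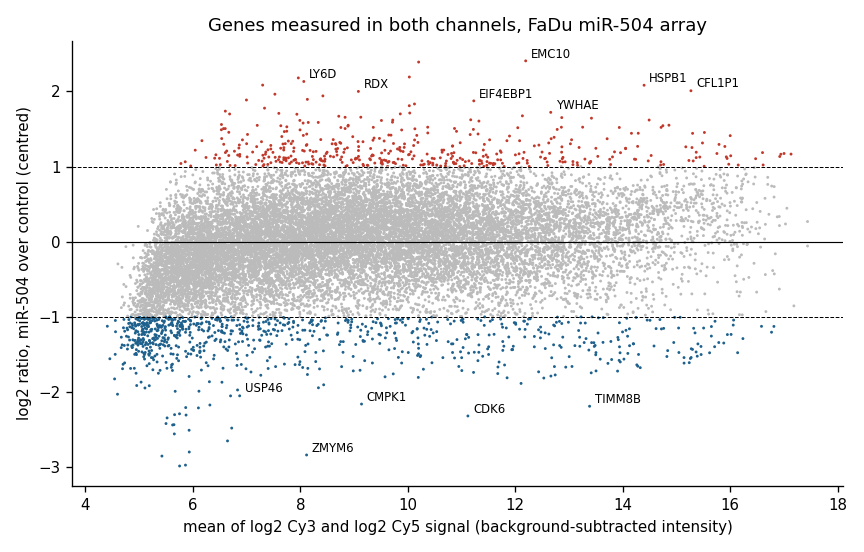
Log2 ratio of miR-504 over control RNA (y axis, array median at 0) against the mean of log2 Cy3 and log2 Cy5 signal (x axis) for the 17358 genes measured in both channels on the FaDu miR-504 array. Points are genes, dashed lines mark 2-fold, blue and red mark genes past it; TIMM8B (−2.19) and CDK6 (−2.32) lie low at a high signal.

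The largest differences below control joined a few well-expressed genes to a group of very dim ones. ZMYM6, a zinc finger protein, had a signal of 592 in control and 130 in miR-504 cells, a ratio of −2.84 or 0.140 of control. CDK6, the kinase that with D-type cyclins phosphorylates RB, had 3964 and 1248, a ratio of −2.32, and its other probe gave −1.38. TIMM8B, a chaperone of the mitochondrial intermembrane space, was the brightest of the 15 with 18222 and 6272, a ratio of −2.19. The signals of CMPK1, the kinase that phosphorylates UMP and CMP, were 951 and 334 (−2.16). USP46, a deubiquitinating enzyme, had 190 and 72.0 (−2.05), with −2.02 by its other probe. LBR, the lamin B receptor of the inner nuclear membrane, which also acts in cholesterol synthesis, had 6775 and 2878 (−1.89). TRIM35, a ubiquitin ligase, had −1.90 by its brightest probe but 0.20 by its other one.

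Of these 15 genes, 9 had a control signal under 200. In SLC46A3, GPR21, PRRX1, CCDC39 and TMEM174 the control signal was 91.5 to 104 and the miR-504 signal 20 to 34.0, for ratios of −2.85 to −2.21. On the FaDu miR-489 array, whose control has the same name, the control signal of these 5 genes was only 5 to 20 and neither channel was well above background. With normexp and loess their ratios shrank to −1.10 to −1.0. The other dim ones were A2ML1, a protease inhibitor of the epidermis (−2.51), KBTBD11 (−2.17), HRG, a plasma glycoprotein (−1.87), and USP46. A2ML1 had −2.64 and −2.77 with miR-489 in FaDu and HSC3 cells, and −0.67 in HSC3 cells with miR-504. KBTBD11 had −1.68 on the FaDu miR-489 array. HRG had −1.70 there, and −1.09 and −1.27 in HSC3 cells with miR-504 and miR-489.

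Across the 4 arrays the well-expressed genes of this group split. ZMYM6 stood at −2.37 in HSC3 cells with miR-504, but with miR-489 at −0.85 in FaDu and −0.80 in HSC3 cells, and its other probes here gave only −0.71 to −0.04. TIMM8B, CMPK1 and USP46 had −1.72, −2.01 and −1.84 in HSC3 cells with miR-504, and −0.45 to −0.07 on the miR-489 arrays. CDK6 was low on all of them, at −1.98 and −1.79 with miR-489 in FaDu and HSC3 cells and at −1.44 in HSC3 cells with miR-504. TRIM35 was likewise between −1.73 and −1.48 on the other arrays. LBR had −2.14 in HSC3 cells with miR-504, and −0.88 and −1.17 with miR-489 in FaDu and HSC3 cells. The FaDu miR-489 and miR-504 arrays have a control of the same name, and whether it was the same RNA is not stated. If it was, their values are not independent of each other. At least 2-fold lower genes made up 8.78% of those testable on the FaDu miR-489 array, 5.11% on the HSC3 miR-504 array and 8.15% on the HSC3 miR-489 array; the shares of higher genes were 2.86%, 1.97% and 2.71%.

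The largest differences above control were mostly as large on the other arrays. EMC10, a subunit of the endoplasmic reticulum membrane protein complex, had 1624 in control and 13522 in miR-504 cells, a ratio of 2.41, with 2.39 and 2.20 after miR-489 in FaDu and HSC3 cells and 2.01 after miR-504 in HSC3 cells. HSPB1, a small heat shock protein, had 8376 and 55684 (2.08), its other probes giving 1.93 and 2.0, and the other arrays 1.60 to 1.92. RDX, the actin linker radixin (2.0), EIF4EBP1, the inhibitor of cap-dependent translation (1.87), TNRC6A, the Argonaute partner GW182 (1.83), and the 14-3-3 proteins YWHAH (1.81) and YWHAE (1.72) also exceeded 1.5 on all other arrays. Other probes did not show this for TNRC6A (0.05) and YWHAE (−0.37 to −0.08), and gave −0.35 to 0.51 for ARID5B. Of the 15 genes, 12 of the 13 measured in both channels on the HSC3 miR-504 array were at least 2-fold higher there, and 12 of 13 on the HSC3 miR-489 array. CFL1P1, a pseudogene whose product shares sequence with cofilin (2.01), ELOVL7 (1.89), IRF2BP1 (1.78), ZNF580 (1.70) and ARID5B (1.70) complete this set.

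The exceptions were LY6D, ZNF750 and TNFSF10. LY6D, a surface protein of stratified epithelium, had 102 in control and 702 in miR-504 cells (2.13). On the FaDu miR-489 array it had 381 in control and 714.5 in miR-489 cells (0.33). For LY6D the FaDu arrays thus differed in the control signal and hardly in Cy5, and how much of its ratio came from the control RNA was not tested. LY6D was not above background in HSC3 controls. ZNF750, a transcription factor of epidermal differentiation, had 42.5 and 222 (1.74), against −0.41 on the FaDu miR-489 array. TNFSF10, the death ligand TRAIL, had 85.6 and 439 over 10 spots (1.71), against 0.25 with miR-489 in FaDu and 0.46 and 0.55 with miR-504 and miR-489 in HSC3 cells. All of them were dim in control cells, and ZNF750 was not measured in both channels in HSC3 cells.

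**Figure D2:**
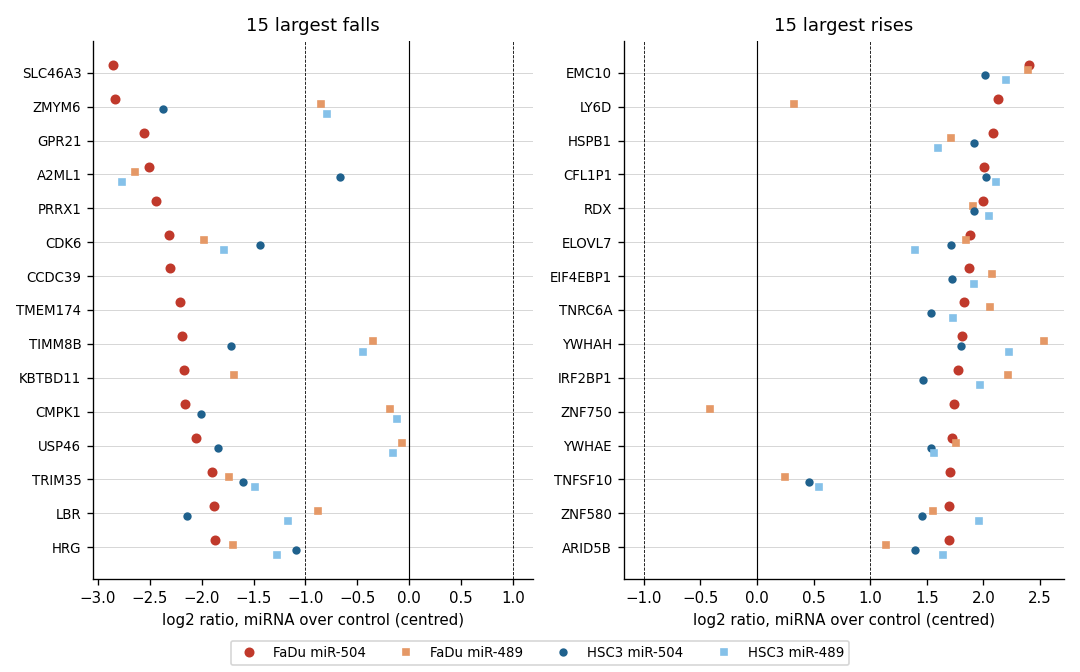
Log2 ratios of the 15 named genes lowest (left) and 15 highest (right) against control of the FaDu miR-504 array on each of the 4 arrays, drawn where both channels were well above background. One point is 1 array and dashed lines mark 2-fold; TIMM8B, CMPK1 and USP46 are low on both miR-504 arrays, while most of the higher genes lie beyond 1 on all 4.

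Over all genes, the calls overlapped with HSC3 arrays of either miRNA. Of 787 genes lower here among those testable on both arrays, 434 (55.1%) were also at least 2-fold lower on the HSC3 miR-504 array, which is 65.4% of its 664. The HSC3 miR-489 array shared 433 of 807 (53.7%), or 40.0% of its 1083. For higher genes the shares of the calls made here were 59.2% with HSC3 miR-504 (257 of 434) and 59.2% with HSC3 miR-489 (254 of 429). Among all genes testable on both arrays, 4.12% were called lower on the HSC3 miR-504 and 6.66% on the HSC3 miR-489 array, and 2.09% and 2.87% were called higher. Of 351 lower genes measured in both channels on every array, 117 were at least 2-fold lower on all 4. For the 284 higher genes the number was 114. All arrays had the same dye orientation and lay on 1 slide, and the part of either in this overlap was not tested.

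In 21 genes both miR-504 arrays gave a ratio at least 2-fold lower while neither miR-489 array reached 1.5-fold in that direction. Of the 351 lower genes measured in both channels on every array, 33.3% were lower on all 4, and these 21 were 5.98%. This set and those of the next paragraphs were chosen after the values were seen, and the rule itself fixed the directions. Besides TIMM8B, CMPK1 and USP46, it held the proteases PRSS23 (1246 in control and 578 in miR-504 cells, −1.76), LGMN, the lysosomal legumain (798 and 383, −1.71), and OMA1 of the inner mitochondrial membrane (−1.36). It also held CCNYL1, a cyclin-like protein (−1.60), STARD7, a carrier of phosphatidylcholine to mitochondria (−1.39), COPZ1, a coatomer subunit (−1.23), SBDS, a factor of ribosome maturation (−1.21), TAX1BP1, an autophagy receptor (−1.10), and CTNNBIP1, an inhibitor of beta-catenin (−1.08). For the genes from PRSS23 to CTNNBIP1 the values in HSC3 cells with miR-504 ran from −1.57 (PRSS23) to −1.0 (SBDS). The remaining members were ZNHIT3, CUTC, SS18L2, FBXO33, H3-5, RAPGEF1, STK35, MAP2K5 and AKAP7, from −1.44 to −1.07. PRSS23, LGMN and SBDS stood at 0.00, 0.22 and 0.10 on the FaDu miR-489 array. Others were lower there too, though short of 1.5-fold: AKAP7 (−0.54), MAP2K5 (−0.52), ZNHIT3 (−0.49) and CTNNBIP1 (−0.47).

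Second probes were available for some of these genes. They gave −1.86 for PRSS23, −1.88 to −1.5 for CCNYL1, −1.27 for OMA1 and −1.34 for SBDS. They gave less for COPZ1 (−0.40), FBXO33 (−0.54) and MAP2K5 (−0.25). With normexp and loess, 17 of the 21 stayed past 2-fold, and 16 had a control signal of at least 200. Over all genes with 2 probes measured, the second probe of those 2-fold lower was below 0 in 96 of 142 and 2-fold lower in 19, and that of those 2-fold higher was above 0 in 73 of 96 and 2-fold higher in 22.

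In the opposite direction 9 genes (3.17% of the 284 higher genes measured on every array) were higher on both miR-504 arrays alone. They were ADGRE5, the adhesion receptor CD97 (1.52, other probe 0.39), CLOCK, the circadian transcription factor (1.30), CTSZ, the cathepsin Z protease (1.28), ZNRD2 (1.25), HGH1 (1.22), LIMK1, the kinase of cofilin (1.17), GRHL3, an epidermal transcription factor (1.16), SLC38A7 (1.14) and JOSD2 (1.14). CTSZ stood at 1.46 in HSC3 cells with miR-504 and at −1.70 with miR-489. With normexp and loess 5 of them stayed past 2-fold.

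Some genes were past 2-fold on the FaDu miR-504 array alone, and under 1.5-fold in that direction on the other arrays. Of the 351 lower genes measured on every array these were 15 (4.27%), and of the 284 higher genes 12 (4.23%). Among the 15 lower ones CCN1, a matricellular protein and target of YAP, had 14372 in control and 8890 in miR-504 cells (−1.34). Its other probes gave −1.28 and −1.25. Of the other 14, 12 had a control signal under 200, and only 3 of all 15 stayed past 2-fold with normexp and loess. Control signals also differed between the FaDu arrays, with 182 here and 44.5 on the miR-489 array for CFAP263. They were 135 and 38 for DENND4A, 140 and 63 for PRICKLE1, and 233 and 91 for LZTR1. Only ELAVL2, LRIG1 and VIM had a lower control signal here than there. How much of these ratios came from the control RNA was not tested. The higher ones included TNFSF10, FGFR3, a receptor tyrosine kinase (562 and 2352, 1.41), the interferon-induced OASL and HERC5, CA2, a carbonic anhydrase (1135 and 3800, 1.09), and PLAT, the tissue plasminogen activator (152 and 498, 1.06). With normexp and loess 5 of the 12 stayed past 2-fold.

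**Figure D3:**
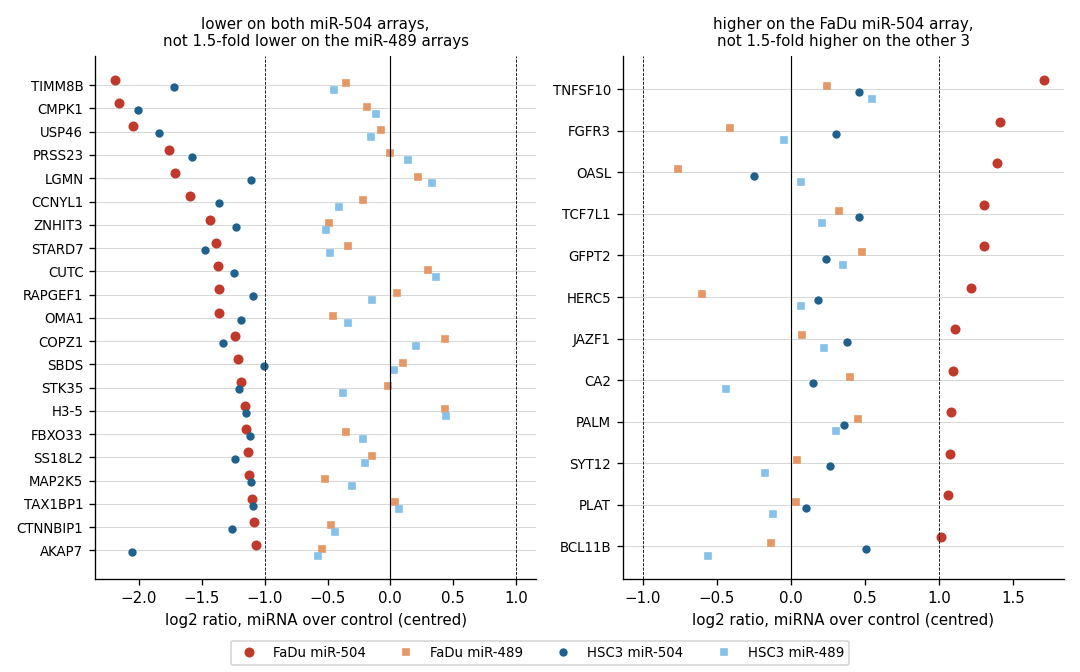
Log2 ratios (x axis) on each of the 4 arrays of 21 genes lower by 2-fold or more after miR-504 in both lines (left) and 12 genes at least 2-fold higher on the FaDu miR-504 array (right), in each case less than 1.5-fold changed that way on the remaining arrays. One point is 1 array; the separation of the points follows from how the genes were chosen.

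Of the gene lists, the replication-dependent histones held a family whose members all lay on 1 side. These genes, in clusters and expressed in S phase, encode the core histones H2A, H2B, H3 and H4 and the linker H1. The 46 measured had a median of −0.12, against −0.01 over all measured genes, and 12 of 47 were at least 1.5-fold lower (background 15.9%). All 9 H3 genes were below 0, from −1.08 (H3C3) to −0.49 (H3C7), with a median of −0.85. Their median stayed between −1.02 and −0.69 under every setting of background and normalisation run, and no member was above −0.37 in any. H3C3 had a signal of 11742 in control and 8708 in miR-504 cells, and H3C8 3868 and 2975 (−1.03), its other probe giving −0.24.

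The H3 genes were also all below 0 in HSC3 cells with miR-504, from −0.89 to −0.48 with a median of −0.68. After miR-489 their medians were −0.19 in FaDu and 0.01 in HSC3 cells, with 6 and 4 of 9 below 0. The medians of the H2A, H2B and H4 genes on the FaDu miR-504 array were −0.12, 0.03 and −0.11, and that of the H1 genes −0.32, with H1-5 at −1.51 here and between −1.5 and −1.38 on the other arrays. H2BC12 was the highest histone (1.04). The probe matched to H3-5, an H3.3-type gene outside the list, had −1.15 on both miR-504 arrays. On the miR-489 arrays it had 0.43 and 0.44. Its control signal was 33091 here, and whether it reads only H3-5 was not tested. Between the FaDu arrays the median control signal of the 9 H3 genes differed by 0.00 on the log2 scale and their Cy5 signal by −0.45 (miR-504 minus miR-489), against −0.04 and 0.02 over all genes. The H3 genes are nearly identical in coding sequence, so their probes may share signal, and 9 values are not 9 independent measurements. The family was singled out after its values were seen.

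Interferon-stimulated genes had a median of 0.55 with quartiles of 0.04 and 0.90. The next highest list median was that of the keratins (0.54), and the order of these lists depended on the setting. Keratins were higher with normexp (0.60 against 0.51) and without background subtraction (0.70 against 0.56). Interferon-stimulated genes were higher with loess (0.46 against 0.44) and with the ratios of the scanner software (0.47 against 0.43). These genes encode antiviral proteins and are switched on by interferon through a complex that holds STAT2 and IRF9. Of 38 that could be tested for a higher level, 5 passed 2-fold (background 2.34%) and 16 at least 1.5-fold higher (11%). None of 35 was 1.5-fold lower (background 15.9%). The median lay between 0.38 and 0.56 over the settings of background and normalisation, and other filters and probes gave 0.47 to 0.57. IRF9, the DNA-binding subunit of the interferon-activated complex, had 204 in control and 916 in miR-504 cells (1.52). OASL, an oligoadenylate synthetase-like protein, had 3336 and 13718 (1.39). HERC5, the ligase that attaches ISG15, had 399 and 1456 (1.22). IFITM1 and IFITM2, related membrane proteins that block viral entry, had 1.16 and 1.04. The lowest were STAT2 (−0.57) and MX2 (−0.51), both dim.

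IRF9, IFITM1 and IFITM2 were also high elsewhere, from 0.85 to 1.27 on the other arrays. Other members were not, and IFIT1 and IFIT2 are named among them after their values were seen. OASL was at −0.76 on the FaDu miR-489, −0.25 on the HSC3 miR-504 and 0.07 on the HSC3 miR-489 array, and HERC5 at −0.60, 0.18 and 0.07. IFIT1 and IFIT2, which restrain translation, were at 0.35 and 0.46 here, but at −1.39 and −1.74 on the FaDu miR-489 array. As a whole, the list had a median of −0.11 on the FaDu miR-489 array, and −0.04 with miR-504 and 0.13 with miR-489 in HSC3 cells.

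The control channels of the FaDu arrays were not alike for these genes. OASL had a control signal of 3336 on the miR-504 array and 7444 on the miR-489 array, HERC5 399 and 841, and IFIT1 2752 and 4868. Over the 35 genes measured in both channels of both, the median control signal was lower by 0.26 on the log2 scale on the miR-504 array (−0.26; all genes −0.04), while the median Cy5 signal was higher by 0.29 (all genes 0.02). How much of the ratio came from the control RNA was not tested.

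Upstream of their starts many of these genes carry the interferon-stimulated response element, of which the core, GAAA and again GAAA with any 2 bases between, was searched on both strands of 300-base promoter windows (250 bases before to 50 after the start). It was found in 19 of the 27 measured genes with a listed promoter, and in 3.65% of all 27305 promoters. The median ratio was 0.55 for the 19 and 0.48 for the 8 without a match. Windows of HERC5, IFITM1 and ISG15 (0.92), the matched genes of this list that are highest here or best known, are given with the core in capitals; that of HERC5 reads on the opposite strand. A match is a description of these letters only.
HERC5 (GRCh38.p14, chr4:88456984-88457013, plus strand): ctcattacagTTTCCTTTTCcttttcgatt
IFITM1 (GRCh38.p14, chr11:313990-314019, plus strand): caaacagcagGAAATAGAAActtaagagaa
ISG15 (GRCh38.p14, chr1:1013374-1013403, plus strand): catgcctcggGAAAGGGAAAccgaaactga

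**Figure D4:**
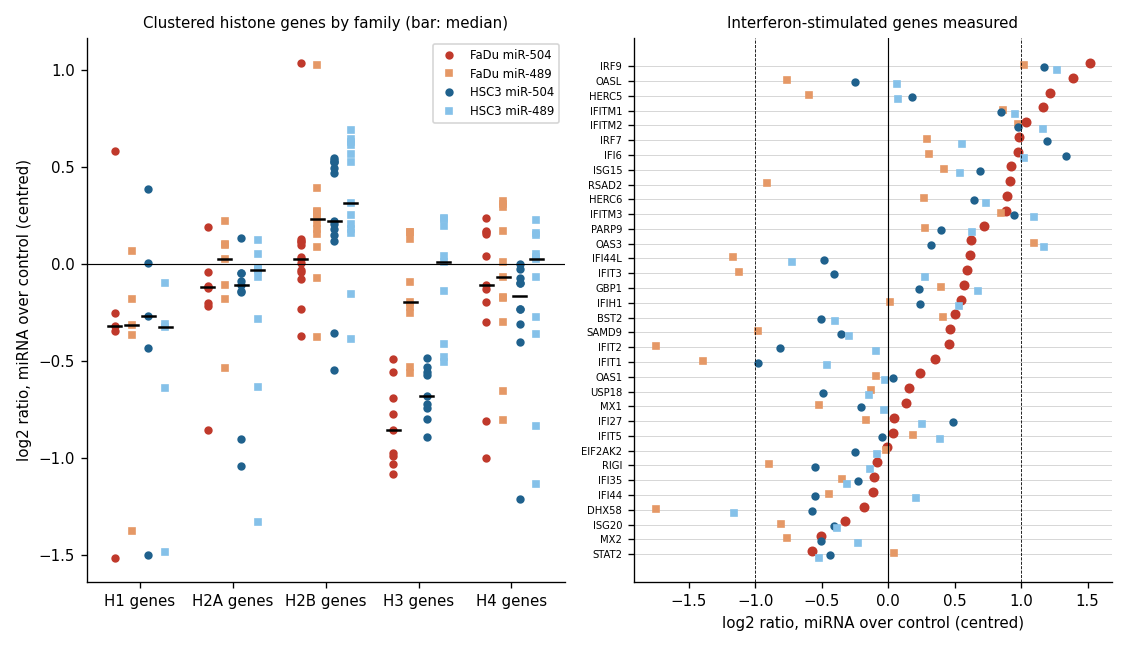
Left, log2 ratios (y axis) of clustered histone genes by family on each array, with the median as a bar; the H3 genes lie below −0.4 on both miR-504 arrays. Right, log2 ratios (x axis) of the interferon-stimulated genes measured on the FaDu miR-504 array, 1 of them not drawn, in the order of that array and with the other arrays beside them; one point is 1 gene on 1 array, and dashed lines mark 2-fold.

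Among targets of miR-504 reported in the literature, CDK6 is given above. FOXP1, a forkhead transcription factor, had 550 in control and 794 in miR-504 cells (−0.12), with −0.07 by its other probe. VEGFA, the angiogenic growth factor, had 416 and 1150 (0.82), its other probes giving −0.40 to 0.15. VEGFA was at 0.66 to 1.18 on the other arrays.

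Around CDK6, the 22 genes of the RB pathway had a median of −0.10, with 3 at least 2-fold lower (background 5.98%) and none higher (2.34%). Besides CDK6 these were CCND2, cyclin D2 (231 and 121, −1.58), and E2F3, an activating E2F (1575 and 1234, −1.0). Other probes of CCND2 gave −0.85 and −0.70. E2F3 was also between −1.15 and −0.91 elsewhere. The highest were E2F4, a repressive E2F (0.85, other probe −0.49), and CDK4, the partner kinase of CDK6 (0.78). Of the 45 S phase genes measured, CCNE1, cyclin E1, alone was 2-fold lower (−1.04; background 5.98%), and the median was 0.13; SLBP (0.82) and RRM2 (0.81) were highest. None of 44 mitosis genes passed 2-fold (background 5.98% lower and 2.34% higher) and their median was 0.11, from SPC25 (−0.91) and ANLN (−0.67) to CDC25C (0.86) and KIF20A (0.83).

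In the BCL2 family, which controls apoptosis at mitochondria, the median was −0.08 over 17 genes. BBC3 (PUMA) and BAX, which promote apoptosis, were lower by their brightest probes (−1.24 and −1.17), but other probes gave up to 1.46 and 0.38. HRK (−1.16, other probe −0.22) was the remaining one past 2-fold (3 of 17 in all, background 5.98%), and BAD (0.99) and BIK (0.69) were highest.

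The 16 measured keratins, the filament proteins of epithelium, had a median of 0.54 (0.37 to 0.70 over the settings of background and normalisation, and 0.34 with the second brightest probe), with 13 above 0 and 7 at least 1.5-fold higher (background 11%). KRT19, a keratin of simple epithelium, had 32116 in control and 134089 in miR-504 cells (1.41), and KRT14 of the basal layer 4543 and 13248 (0.89). KRT10, of suprabasal cells, was lowest (−0.70), then KRT7 (−0.11). The keratin median was 0.78 with miR-489 in FaDu cells, and 0.67 with miR-504 and 0.23 with miR-489 in HSC3 cells. The 18 measured genes of squamous differentiation had a median of 0.30, from A2ML1 (−2.51) and CSTA (−0.67) to LY6D (2.13) and TGM1, the crosslinking transglutaminase (0.91). Among genes of epithelial-mesenchymal transition the median was 0.11, with VIM (vimentin, −1.02) and CDH2 (−0.69), both dim, lowest and CDH3, P-cadherin (5978 and 19588, 1.06), and SNAI1 (0.95) highest.

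For adhesion and the matrix, the 17 integrin and laminin-332 genes had a median of 0.35, which was −0.004 with the mean of all probes. The values ran from ITGB2 (−1.17) and ITGB1 (−0.84, other probes −0.38 to 0.26) to ITGA5 (1.22) and ITGA3 (0.78). The laminin chain LAMB3, named after its values were seen, had 27626 and 27026 (−0.68), against −0.36 on the FaDu miR-489 array and −0.03 in HSC3 cells with miR-504. The 20 matrix proteases and plasminogen activators had a median of 0.13, from MMP13 (−0.70) and MMP3 (−0.57) to PLAT (1.06) and ADAM17 (0.80).

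Signalling lists mixed both directions. In the EGFR family and its ligands the median was −0.29 over 10 genes, with the feedback inhibitor ERRFI1 (−0.89) and BTC (−0.37) lowest and ERBB3 (1.03, other probe −0.07) and HBEGF (0.47) highest. ERRFI1 was at −2.12 and −2.09 on the miR-489 arrays and −0.65 in HSC3 cells with miR-504. ERK feedback and immediate early genes had a median of 0.12 over 25, from IER2 (−1.04) and EGR1 (−1.0) to JUND (1.13) and FOS (0.92). Their median was −0.11 with the mean of all probes and also with the second brightest probe. The ERK phosphatase DUSP6, also named after its values were seen, had −0.95 here and 0.39 on the FaDu miR-489 array. The TGF-beta list had a median of 0.25 over 16, and of 0.05 with signals of at least 200. SKI, a SMAD repressor (−1.43, other probe −0.39), and TGFBR2 (−0.25) were lowest and TGFB1 (1.20) and ACVR1 (0.71) highest. The Notch list had 0.14 over 14, with HEY1 (−1.20) and MAML1 (−0.67) lowest, HES1 (0.98) and the ligand JAG1 (0.90) highest. Interleukins, chemokines and NF-kB feedback genes had −0.07 over 27, with BIRC3 (−1.18) and CXCL8 (−0.93) lowest and ICAM1 (0.81) and IL1RN (0.68) highest.

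Antigen presentation by HLA class I had a median of 0.25 over 20 genes and none past 2-fold. B2M, the shared light chain (−0.46), and ERAP1 (−0.18) were lowest and HLA-G (0.83), whose probe may read other class I genes, and ERAP2 (0.78) highest. Proteasome subunits had −0.04 over 34. PSMA1, a core subunit, had 6791 in control and 4044 in miR-504 cells (−1.40), and PSMD14, the lid deubiquitinase, 10143 and 7992 (−0.99). These values were −0.93 and −0.61 on the HSC3 miR-504 array, −0.32 and −0.21 on the FaDu miR-489 array and −0.03 and 0.00 on the HSC3 miR-489 array. PSMB3 (0.90) and PSMD5 (0.76) were the highest subunits.

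The 26 genes of cholesterol synthesis had a median of 0.35 (0.18 to 0.37 over the settings of background and normalisation), with 22 above 0, from SQLE (−0.41) and HSD17B7 (−0.28) to DHCR7 (0.98) and INSIG1 (0.85). Glycolysis had 0.34 over 22 (0.11 to 0.42), from ENO2 (−0.35) and HK2 (−0.08) to TPI1 (1.07) and GAPDH (0.83). Oxidative phosphorylation had 0.10 over 75, from ATP5PD (−0.98) and NDUFA8 (−0.88) to NDUFB7 (1.29) and NDUFB11 (1.19). The NRF2 list had 0.01 over 24, from GCLC (−0.94, other probe 0.65) and ABCC2 (−0.61) to TKT (0.94) and FTL (0.69).

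The 76 ribosomal protein genes had a median of 0.27, which was 0.01 with normexp and loess and −0.17 with the ratios of the scanner software. They ran from RPS29 and RPL23 (both −0.67) to RPL29 (1.55), with much the same values on each array; many have pseudogene copies that may share signal. Aminoacyl-tRNA synthetases had 0.27 over 20, from LARS1 (−1.32, other probe 0.42) and FARSB (−0.36, other probe 0.59) to VARS1 (1.02) and SARS1 (0.83). RNA polymerase subunits had −0.08 over 21, from POLR2D and POLR3G (both −0.47) to POLR3E (1.43, other probe 0.31) and POLR2J (1.17). Splicing factors had 0.11 over 30, from SRSF6 (−0.86) and HNRNPA3 (−0.51) to HNRNPR (1.29) and SRSF2 (1.14). The microRNA pathway itself had 0.04 over 21, from TNRC6C (−0.86) and RAN (−0.72, other probes 0.03 and 0.22) to TNRC6A (1.83) and TARBP2 (0.96). The unfolded protein response had 0.08 over 28, from TRIB3 (−0.82, other probe 0.20) and HERPUD1 (−0.69) to SYVN1 (1.04, other probe −1.25) and DDIT4 (0.71). Heat shock chaperones had −0.01 over 17, from HSPH1 (−0.97) and HSPE1 (−0.34) to BAG3 (0.87) and HSPB1.

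**Figure D5:**
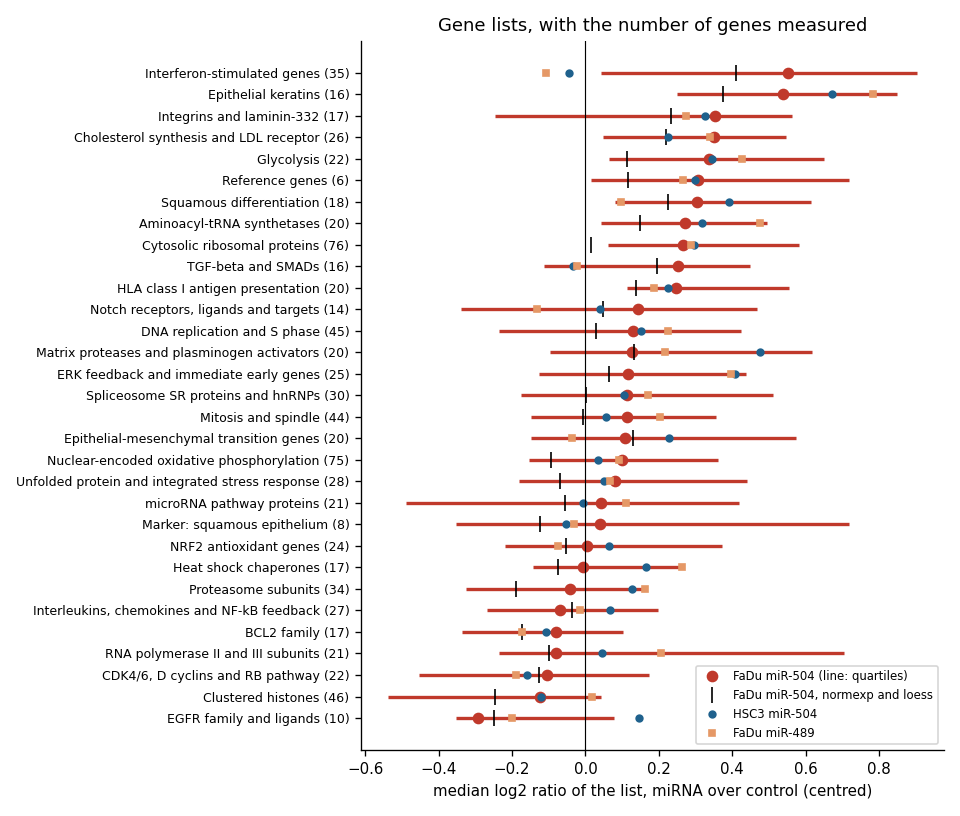
Median log2 ratio (x axis) of each gene list on the FaDu miR-504 array with its quartiles (red), the same with normexp and loess (black tick) and its median in HSC3 cells with miR-504 (blue) and on the FaDu miR-489 array (orange); the number of genes measured is in parentheses. Interferon-stimulated genes are highest here (0.55), just above the keratins (0.54) and not in every setting, and near 0 on both others shown.

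Reference genes ranged from B2M (−0.46) and HPRT1 (−0.03) to ACTB (0.80) and GAPDH (0.83), with a median of 0.31 over 6, against medians of 0.27 on the FaDu miR-489 array and 0.30 in HSC3 cells with miR-504. The labelled cell type was checked by markers. Of 9 squamous epithelial markers on the array 8 were measured in both channels, with KRT5 at 16666 and TP63 at 7121 in control cells, while DSC3 was not above background. Their median was 0.04, from SFN (−0.95) and CDH1 (−0.41) to KRT17 (0.88) and KRT14 (0.89). Neither channel was well above background for any of the 5 fibroblast markers, for 3 of the 4 endothelial markers and for 3 of the 5 leukocyte markers, PTPRC included. VWF was above background in the miR-504 channel only. CD79A (−0.53) and CD14 (0.48) were measured in both, with a median control signal of 379 over these 2 leukocyte markers. CD79A had a signal of at least 200 in both channels.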

How the data were processed

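The authors deposited the scanner output of 4 dual-colour Agilent oligo-microarrays, 1 per condition, made with Feature Extraction 9.5.3.1, with median intensities of spots and local backgrounds and a log10 ratio of Cy5 over Cy3, which the software had background-subtracted and dye-normalised. The log10 ratios were also deposited as a series table, with identical values. The methods name log2 ratios of background-subtracted medians with a global normalisation, and these steps were followed here. The groups and the dyes were taken from the labels.

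On the FaDu miR-504 array 43376 non-control spots of 41000 probes carried 30982 gene names. Of the spots, 58.2% were well above background in Cy3 and 62.4% in Cy5, 118 outlier spots were left out and 0 were saturated. Background-subtracted log2 ratios were centred on the median of spots well above background in both channels (0.65 removed; 0.45 to 0.65 over the 4 arrays). Spots of a probe were averaged and a gene took its brightest probe by control signal. Lower genes were counted where Cy3, and higher genes where Cy5, was well above background; a dim signal in the other channel was raised, where smaller, to the least positive value that passed in that channel (20 for Cy3, 10.5 for Cy5), which gives a bound. Medians of lists used genes measured in both channels. The number of arrays limits the precision. The counting was run on simulated data with shifts well past the threshold and little noise. That run checks the code only and says nothing on the accuracy of the counts.

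Current symbols came from a RefSeq table (GRCh38.p14): 23434 probes matched by accession, 2317 by symbol and 1043 by an older symbol, and 14206 did not match. Genome coordinates of probes are not given. The largest changes named were the 15 falls and 15 rises with a current symbol, both channels measured, and at least 2-fold also with normexp and loess and with the scanner ratios (235 falls and 117 rises met this), with the 2 highest and 2 lowest genes of each list and the reported miR-504 targets. Members and lists were chosen with earlier results of these data known. Some named genes and 1 list are not reported here. No test was run.

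Alternatives were normexp (offset 50), no background subtraction, mean spot signal, loess (span 0.3), normexp with loess, total signal, the deposited ratios and table, other filters, probes and fold thresholds. Subtracting the median of negative control spots and a signal minimum of 200 were chosen after seeing the data. R 4.3.3, limma 3.58.1, data.table, pandas and numpy were used.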

Additional observations from a re-analysis of the deposited data

Results flagged for a closer look

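The values below were singled out because FaDu and HSC3 cells differed in direction after miR-504. With 1 array per line the difference was not tested. OASL had a log2 ratio of 1.39 in FaDu and −0.25 in HSC3 cells. VIM, dim in both channels in FaDu cells (35.5 in control and 27.5), had −1.02 and 0.49. With normexp and loess the FaDu ratio of VIM was −0.15. The median of the EGFR family and its ligands was −0.29 over 10 measured genes and 0.15 over 9.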

How the results depend on the processing

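The 1050 lower genes became 334 with normexp, 356 without background subtraction, 443 with normexp and loess, 1585 with total signal, 11000 with no filter on dim probes, 334 with signals of at least 200, 2787 at 1.5-fold and 112 at 4-fold. The 439 higher genes became 171 with normexp and loess, 211 with total signal, 778 with the deposited ratios and the same with the deposited table, 290 with signals of at least 200, 2071 at 1.5-fold and 8 at 4-fold. All other alternatives run stayed within 1.5 times. The cause was not tested, apart from the thresholds and filters, which set the genes counted. With the second brightest probe 7 named genes past 2-fold changed sign: BAX (0.38), BBC3 (1.46), ERBB3 (−0.072), LARS1 (0.42), SYVN1 (−1.25), TRIM35 (0.20) and YWHAE (−0.20); SYVN1 also did with the mean of all probes (−0.10). Of 33 list medians, 26 kept their sign with normexp and loess and 20 with total signal. A planned split of genes by a miR-504 seed match was not run, since no transcript sequences were used. No paired analysis was possible because each group had 1 array, and for the same reason no replicate could be left out. Weak signal limits the ratios of dim genes, many of which are bounds.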

Other observations

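Negative control spots, which carry no human sequence, had a median background-subtracted signal of 11.5 in Cy3 and 2 in Cy5 on the FaDu miR-504 array (142 spots). The same held on the other arrays, with 11.5 to 15 in Cy3 and 2.5 to 3 in Cy5. Median ratios were also lower in the dimmest quartile of spots on each of them (−0.41 to −0.31).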
